A study of Mus musculus with 36 samples.

Results

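The interferon-stimulated genes described here are 45 mouse genes, taken as every probe whose gene symbol is one of the 45, and they were followed across 10 groups of liver tissue. Of the 45 genes, 43 had at least 1 probe, 71 probes in all among the 25697 on the array, and 36 had a probe detected often enough to be tested, among 10765 tested genes. The study profiled 36 RNA samples of FVB/n mouse liver on Illumina bead arrays and compared liver tumours that carried different oncogene pairs and grew with or without a liver toxin. No oncogene pair was named for the livers labelled DDC_only (n = 3) and PBS_only (n = 3), which carry a treatment as their sole label. AKT-CAT samples were tumours (n = 4) and non-tumoral tissue (n = 3) without a named treatment, tumours (n = 4) and non-tumoral tissue (n = 3) with DDC, and tumours (n = 4) and non-tumoral tissue (n = 4) with CCl4. AKT-NRAS samples were tumours with DDC (n = 4) and tumours without it (n = 4), with no non-tumoral tissue of their own. AKT and NRAS are the oncogenes named in the labels, and CAT was not spelled out there. The labels gave no dose, duration, age, sex, promoter or way of gene delivery, and did not say whether a group's samples came from separate animals. Each p-value therefore sets a difference against the spread of samples within groups, pooled over the 10 groups. That spread may be technical in part.

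Interferons are secreted proteins that warn cells of infection. Type I and type III interferons act through receptors whose signal reaches genes that carry the interferon-stimulated response element (ISRE), whereas the signal of interferon-gamma reaches genes that carry the gamma-activated site (GAS). In liver, hepatocytes, Kupffer cells (the resident macrophages) and endothelial cells all answer these signals, and RNA of the whole tissue carries the sum of their answers. In such bulk samples, fewer cells of a type and less RNA per cell cannot be told apart.

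Levels are log2 intensities after background correction and quantile normalization, and a gene was called higher or lower when limma's adjusted p, taken over all 10765 tested genes, was under 0.05. The arrays detected between 10688 and 13101 probes each, which is 41.6% to 51.0% of the array. Arrays of 1 group correlated at 0.9595 or above over the tested genes. The DDC_only arrays differed for the members. Replicates 1 and 3 had mean member levels of 8.48 and 8.32, the highest of all arrays. DDC_only replicate 2 had 7.54, within the range of PBS_only livers (7.49 to 8.04). These levels do not tell which DDC_only arrays were unusual. PBS_only replicate 3 (8.04, against 7.50 and 7.49) and AKT-CAT tumour with CCl4 replicate 3 (8.13, against 7.61 to 7.68) also lay above their groups. Results that rest on DDC_only replicate 2 are given with and without it. Hepatocyte markers were high in every group, with a summed linear intensity of 34762 to 68332 over 6 genes, although Tat was undetected on all arrays of 7 groups and Fgb on those of 2. Over the marker lists of other cell types, sums per array were 706 to 2960 for 5 plasmacytoid dendritic cell genes, 22.0 to 54.4 for the conventional dendritic cell gene Zbtb46, 67.6 to 183 for 3 B cell genes and 73.1 to 1288 for 3 cholangiocyte genes. The samples lay on 5 slides. DDC_only and PBS_only shared a slide, as did both AKT-NRAS groups and both CCl4 groups, while the other AKT-CAT groups were spread over 3 slides.

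The promoters of 8 members that have an interferon response motif are printed first, to show where the motifs lie in them. RefSeq promoters (assembly GRCm38.p6, from 250 bases before to 50 after the start) were given for 35 of the 45 members. The ISRE core, GAAANNGAAA on either strand, was found in 21 of the 35 (60.0%), and in 3.99% of 27025 genes with a promoter. The GAS core, TTCNNNGAA, which reads alike on both strands, was found in 12 of the 35 (34.3%), and in 9.55% of all genes. Both cores stood in 7 of the 35 (20.0%), and in 0.614% of all genes. In the 120 bases shown here, which end before the start that the promoter table uses (for Gbp3 this start lies inside the gene's annotated span), capitals mark these cores, with overlapping matches joined, and the ISRE core reads TTTCNNTTTC where it lies on the other strand. Isg15 and Rsad2 each have an ISRE core:
Isg15 (chr4:156200819-156200938, minus strand): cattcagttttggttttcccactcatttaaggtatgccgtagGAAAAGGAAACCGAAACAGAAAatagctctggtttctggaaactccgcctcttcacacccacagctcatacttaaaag
Rsad2 (chr12:26456453-26456572, minus strand): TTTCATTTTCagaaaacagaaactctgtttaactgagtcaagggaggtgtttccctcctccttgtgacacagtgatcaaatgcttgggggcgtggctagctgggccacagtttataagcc
The 3 guanylate-binding protein members with a promoter given, all on chromosome 3, each have an ISRE core, and Gbp7 has 2 GAS cores before it:
Gbp2 (chr3:142620543-142620662, plus strand): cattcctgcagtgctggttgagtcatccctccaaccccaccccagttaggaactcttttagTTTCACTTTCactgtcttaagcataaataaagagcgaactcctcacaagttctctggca
Gbp3 (chr3:142559924-142560043, plus strand): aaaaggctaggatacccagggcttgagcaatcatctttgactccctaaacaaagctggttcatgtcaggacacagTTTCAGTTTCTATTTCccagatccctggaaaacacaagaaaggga
Gbp7 (chr3:142530216-142530335, plus strand): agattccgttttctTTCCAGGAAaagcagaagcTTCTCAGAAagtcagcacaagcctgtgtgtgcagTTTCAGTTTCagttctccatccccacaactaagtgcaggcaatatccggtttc
Of the immunity-related GTPase genes on chromosome 11, 3 carry a GAS core that starts 11 bases before an ISRE core:
Igtp (chr11:58199436-58199555, plus strand): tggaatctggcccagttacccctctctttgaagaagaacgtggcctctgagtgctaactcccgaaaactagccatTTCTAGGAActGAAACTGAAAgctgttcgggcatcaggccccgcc
Irgm2 (chr11:58214857-58214976, plus strand): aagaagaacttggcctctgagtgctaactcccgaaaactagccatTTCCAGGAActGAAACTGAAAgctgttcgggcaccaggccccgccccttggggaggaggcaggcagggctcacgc
Tgtp1 (chr11:48992247-48992366, minus strand): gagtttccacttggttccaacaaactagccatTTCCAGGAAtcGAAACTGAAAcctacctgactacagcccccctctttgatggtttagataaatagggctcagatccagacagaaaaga
That spacing of 11 bases, taken from these 3 promoters, occurred in 5 of 27025 genes (0.0185%), with the 3 themselves among the 5. The 3 genes are paralogues whose promoters resemble each other, so they are not independent examples. A match describes the letters and is not evidence of binding, and a window without a match says nothing about the factor.

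**Figure D1:**
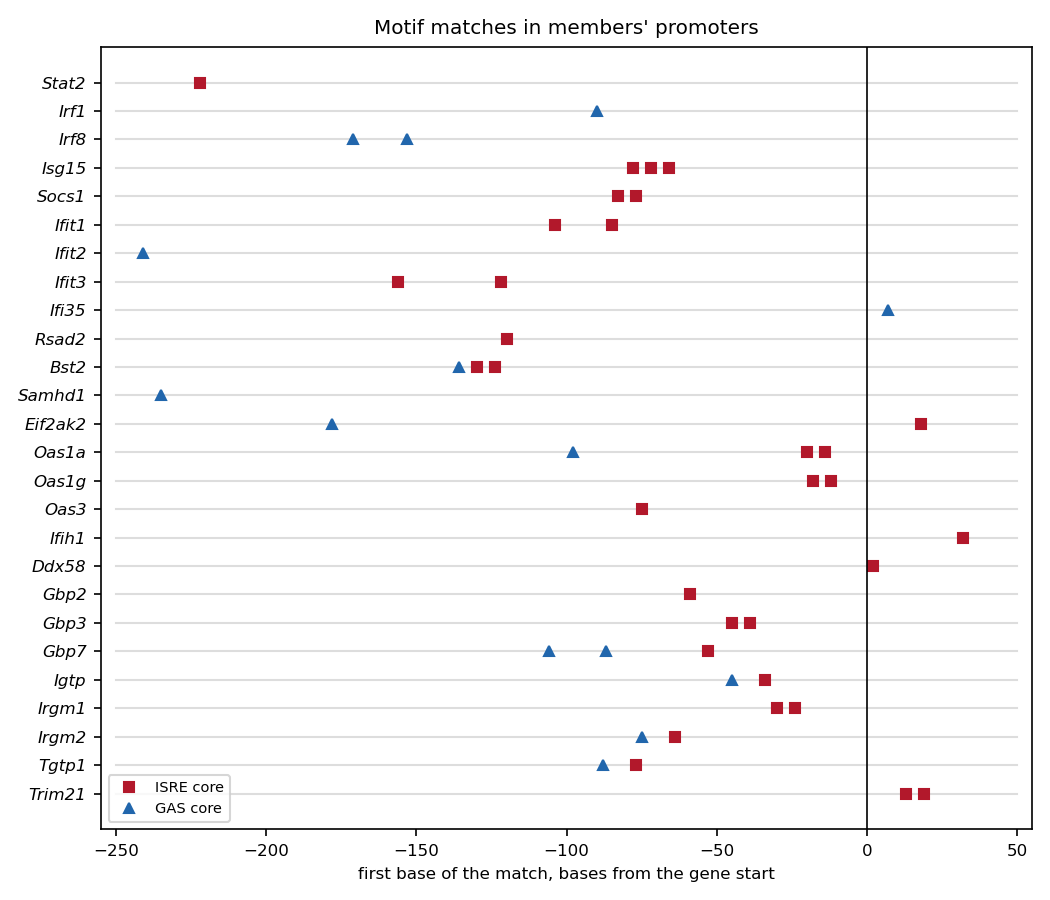
Positions of the ISRE core (squares) and the GAS core (triangles) in the promoters of members that have either, in bases from the gene start (x axis), 1 member per line. In Igtp, Irgm2 and Tgtp1 a triangle stands 11 bases left of a square.

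Across the 10 groups, the members did not move as 1 block. By group mean, 18 of the 36 tested members were lowest in AKT-NRAS tumours with DDC and none was highest there. In contrast, 11 were highest in DDC_only livers and 8 in PBS_only livers. The mean level over the 36 members was 6.78 to 7.04 in the 4 AKT-NRAS tumours with DDC, below every other array, of which the lowest had 7.29. The plot of all members by array shows that the antiviral genes Oasl1, Rsad2, Ifit2 and Oasl2 and the GTPase genes Gbp2, Gbp3, Gbp7, Igtp and Irgm2 had different orders of the groups.

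**Figure D2:**
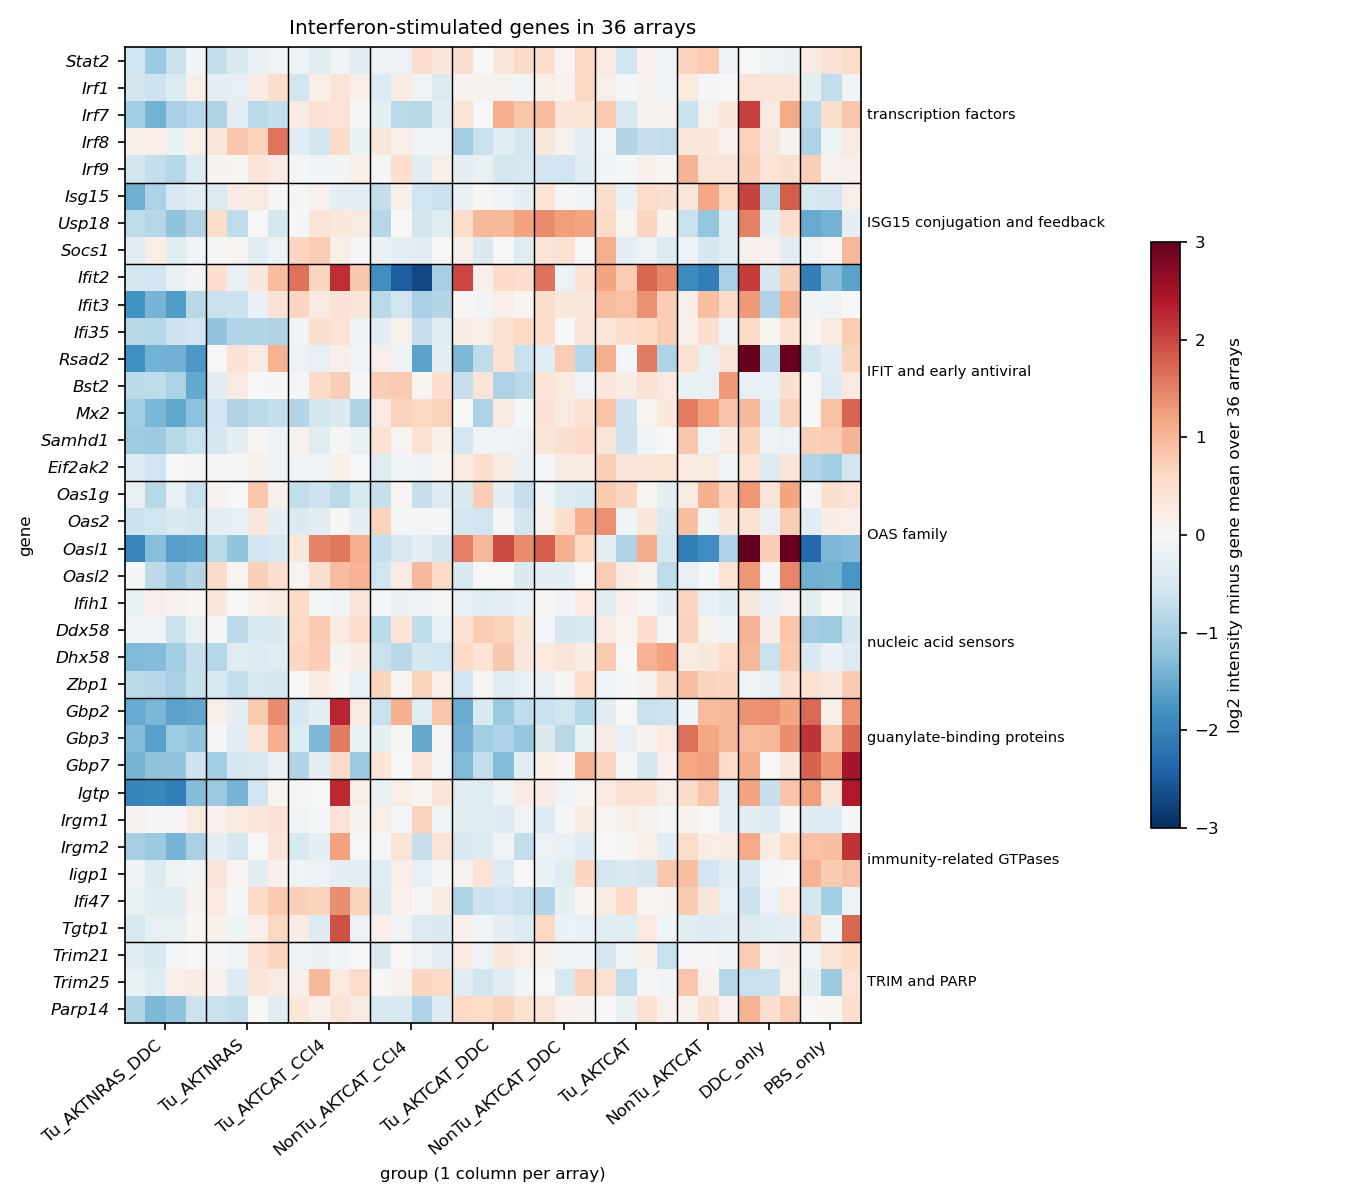
Log2 intensity of each tested member minus its mean over the 36 arrays (colour), with members down the page by role and 1 column per array, grouped. AKT-NRAS tumours with DDC are blue for most members, and the darkest reds are Oasl1 and Rsad2 in 2 of 3 DDC_only livers.

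Among the transcription factors, Irf7, which amplifies type I interferon production, was 8.16, 6.38 and 7.24 in DDC_only livers, 5.30, 6.60 and 6.94 in PBS_only livers, and at most 5.83 in the 8 AKT-NRAS tumours. It was also low in non-tumoral AKT-CAT tissue with CCl4, with 5.84, 5.30, 5.27 and 5.80. Irf8, a factor of myeloid cells, lay between 6.94 and 8.21 in the 4 AKT-NRAS tumours without DDC and between 5.72 and 6.53 in the 4 AKT-CAT tumours without treatment. Stat2, Irf1 and Irf9 differed by less between groups.

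The oligoadenylate synthetase-like gene Oasl1, known in mouse to hold back translation of Irf7, had the widest range. Its levels were 11.15, 7.82 and 10.46 in DDC_only livers and 4.73, 5.74 and 5.79 in PBS_only livers. They were 8.58, 8.04, 9.05 and 8.49 in AKT-CAT tumours with DDC and 8.90, 8.14 and 7.68 in non-tumoral AKT-CAT tissue with DDC. They were 7.40, 8.57, 8.67 and 8.16 in AKT-CAT tumours with CCl4 and 6.39, 6.59, 6.78 and 6.53 in non-tumoral tissue with CCl4. The AKT-NRAS tumours were low, with 5.10, 5.79, 5.42 and 5.48 with DDC and 6.27, 5.90, 6.49 and 6.61 without it. DDC groups were thus high in livers with no named oncogene and in AKT-CAT livers, and AKT-NRAS tumours with DDC overlapped PBS_only livers.

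Ifit2, whose product binds RNA and restrains translation, fell into a low and a high range. It was 5.83, 5.21, 4.95 and 6.67 in non-tumoral AKT-CAT tissue with CCl4, 5.75, 5.59 and 6.69 in non-tumoral AKT-CAT tissue, and 5.62, 6.38 and 6.06 in PBS_only livers. All other 26 arrays had 7.09 or more, and the highest was 9.89 in an AKT-CAT tumour with CCl4. No array lay between 6.69 and 7.09. The 10 low arrays were those of the 3 groups named, and both DDC groups without a tumour were among the high ones.

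Gbp3 and Igtp had another order of the groups. Gbp3, a guanylate-binding protein of cell-autonomous defence, was 8.37, 8.42 and 8.80 in DDC_only livers and 9.57, 8.22 and 9.13 in PBS_only livers. It was 6.10, 5.79, 6.35 and 6.22 in AKT-NRAS tumours with DDC, and 5.96, 6.38, 6.49 and 6.25 in AKT-CAT tumours with DDC. Igtp, an immunity-related GTPase, was 8.02, 8.11, 7.99 and 8.74 in AKT-NRAS tumours with DDC and 11.28, 10.43 and 12.44 in PBS_only livers. Both DDC tumour groups were low for Gbp3, while Igtp was lower in AKT-NRAS tumours with DDC than in all 4 AKT-CAT tumours with DDC, whose lowest value was 9.67.

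**Figure D3:**
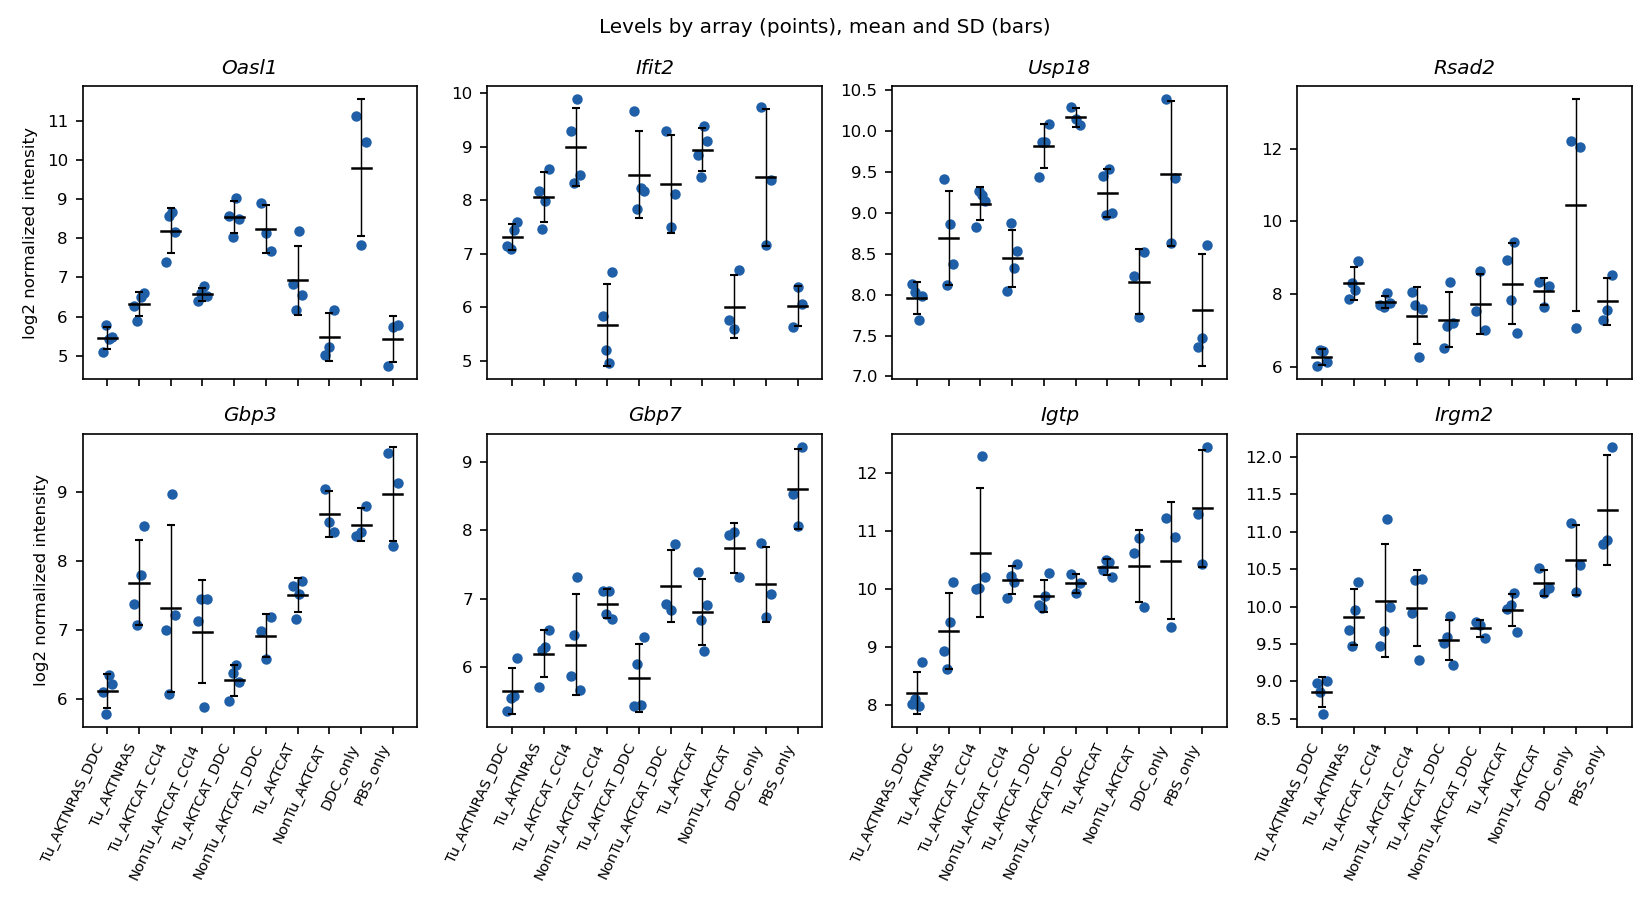
Log2 intensity (y axis) of 8 members in each array (points), with the group mean and SD (bars), by group (x axis). Ifit2 is low in non-tumoral AKT-CAT tissue with CCl4, in non-tumoral AKT-CAT tissue and in PBS_only livers, with no array above 6.69, and Gbp3, Gbp7, Igtp and Irgm2 have their highest means in PBS_only livers.

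The scaling of the arrays set the direction of several of the counts below. Without quantile normalization, with each array scaled only to its median, the median change of all 10765 genes moved by over 0.1 in 10 of the 12 pairs of groups, and came to 0.50 for DDC in non-tumoral AKT-CAT tissue and to 0.42 for AKT-NRAS against AKT-CAT tumours. Relative to the median of all genes, the members' median was 0.28 higher in DDC_only than in PBS_only livers and 0.36 higher under median scaling. In AKT-NRAS tumours with DDC against those without it was −0.60, and −0.71 under median scaling. For AKT-NRAS tumours against PBS_only livers the direction turned, with −0.15 under quantile normalization and 0.15 under median scaling.

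**Figure D4:**
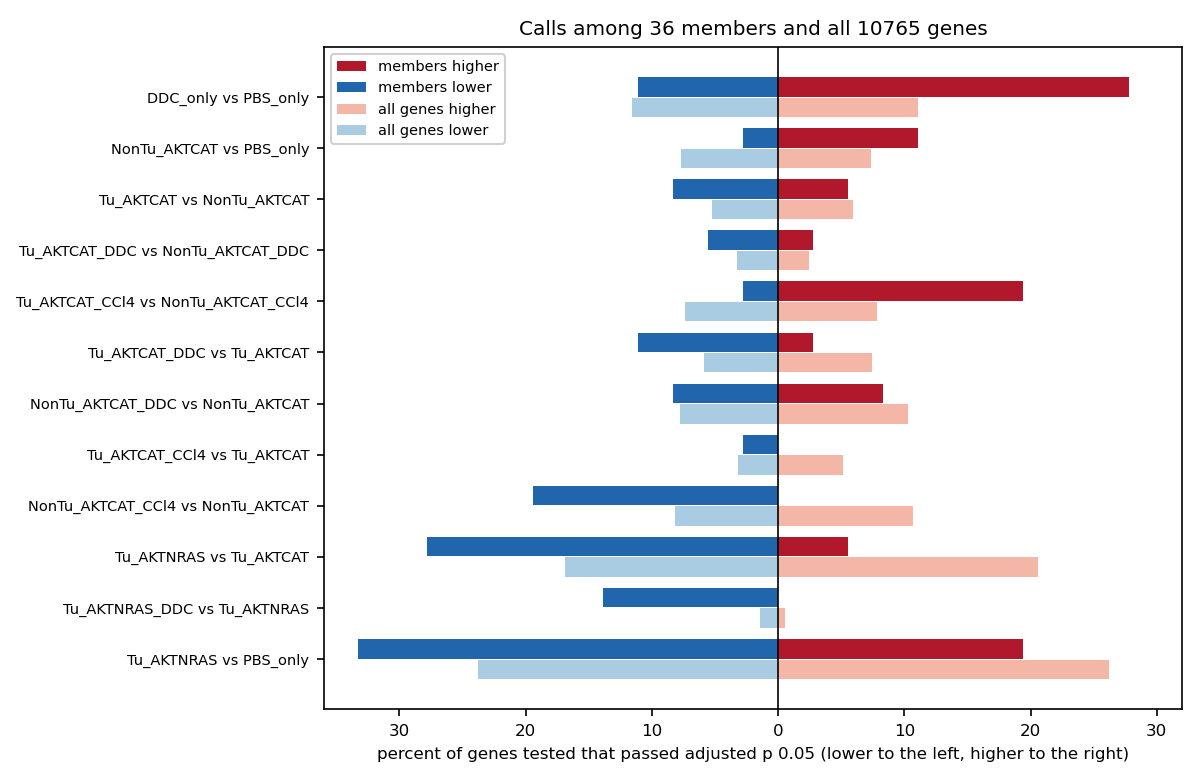
Percent of the 36 members (dark bars) and of all 10765 genes (pale bars) that passed the test in each of 12 comparisons, lower to the left and higher to the right (x axis, percent). Members exceed all genes most in the higher calls of DDC_only against PBS_only, and in the lower calls of AKT-NRAS tumours with DDC against those without. The members were chosen with earlier results of these data known.

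The first comparison asks what DDC did in livers without a named oncogene. Of the 36 members, 10 were higher in DDC_only than in PBS_only livers and 4 were lower, against 11.1% of all genes higher and 11.6% lower. The members' median log2 change was 0.24, and that of all genes −0.04. The share that was lower, 11.1% of the members, was near that of all genes. In the OAS family, Oasl1 rose by 4.39 ± 0.53 on the log2 scale (SE, adjusted p = 2.903e-07), with no overlap. Oasl2 was 8.40, 7.05 and 8.58 in DDC_only livers and 5.66, 5.69 and 5.36 in PBS_only livers, a rise of 2.44 ± 0.36 (SE, adjusted p = 9.129e-06). These groups did not overlap either.

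Among the early antiviral genes, Ifit2 rose by 2.41 ± 0.53 (SE, adjusted p = 0.001114). Rsad2, which encodes the antiviral enzyme viperin, was 12.21, 7.08 and 12.04 in DDC_only livers and 7.30, 7.56 and 8.54 in PBS_only livers. Its rise of 2.64 ± 0.77 (SE, adjusted p = 0.01245) came from 2 of 3 arrays, and DDC_only replicate 2 lay below all PBS_only livers. Eif2ak2, the RNA-activated kinase PKR, was 10.23, 9.43 and 10.24 in DDC_only livers and 8.96, 8.82 and 9.24 in PBS_only livers, a rise of 0.96 ± 0.21 (SE, adjusted p = 0.000863) with no overlap. Samhd1, which degrades nucleotides, fell by 0.72 (adjusted p = 0.02532).

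Of the ISG15 system, Usp18, which removes ISG15 and dampens the type I receptor, was 10.39, 8.63 and 9.43 in DDC_only livers and 7.37, 7.47 and 8.60 in PBS_only livers. It rose by 1.67 ± 0.34 (SE, adjusted p = 0.0004767), and the lowest DDC_only array lay just above the highest PBS_only array. The ubiquitin-like modifier Isg15 was 10.33, 7.52 and 10.10 in DDC_only livers and 7.82, 7.79 and 8.46 in PBS_only livers. Its rise of 1.29 ± 0.42 (SE, adjusted p = 0.02384) was again carried by replicates 1 and 3. The RNA sensor Ddx58 (RIG-I) was 7.37, 6.59 and 7.19 in DDC_only livers and 5.32, 5.30 and 5.85 in PBS_only livers, where it was detected on 1 of 3 arrays. It rose by 1.56 ± 0.26 (SE, adjusted p = 5.603e-05).

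The members that fell with DDC in these livers were led by Gbp7, with 7.82, 6.73 and 7.07 in DDC_only livers and 8.52, 8.06 and 9.22 in PBS_only livers. The groups did not overlap, and the change was −1.39 ± 0.37 (SE, adjusted p = 0.0066). Where a probe was undetected on every array of a group, the change is given as a bound, which sets that group at the dimmest detected signal of each array. Iigp1, an immunity-related GTPase, was undetected in DDC_only livers and at least 1.93-fold lower than in PBS_only livers (adjusted p = 0.01171). Tgtp1, another such GTPase, was undetected as well and at least 1.44-fold lower (adjusted p = 0.04101). It was detected on 2 of 3 PBS_only arrays, and its call was lost under 10 of 15 alternatives. The other 2 that rose, named after their values were seen, were the transcription factor Irf1, by 0.74 (adjusted p = 0.02168), and the ADP-ribosyltransferase Parp14, by 0.57 (adjusted p = 0.04164). The remaining 22 members did not pass, among them Gbp2 and Gbp3.

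Of the 12 members named for DDC_only against PBS_only, Oasl1, Oasl2, Ifit2, Usp18, Ddx58 and Eif2ak2 passed under every alternative. Without DDC_only replicate 2, 13 members were higher and 1 was lower, and 10 of the 14 calls were kept. This array was picked because its mean member level was the lowest of its group, so larger rises without it are not separate support. Rsad2 then rose by 4.32 ± 0.55 (SE, adjusted p = 1.356e-06) and Isg15 by 2.19 ± 0.30 (SE, adjusted p = 4.752e-06). Of the lower calls, Gbp7, Tgtp1 and Samhd1 were lost (adjusted p = 0.05037, 0.08656 and 0.1242). Without DDC_only replicate 1, 8 members were called, and without replicate 3, 9, with Rsad2 and Isg15 lost in both. A fit of these groups alone lost Rsad2 and Isg15 too. Median scaling gave 12 higher and 1 lower. Markers of other cell types moved too: 3 of 6 stellate and fibroblast genes were higher, with sums of 10817 to 13023 in DDC_only livers and 5859 to 6565 in PBS_only livers. Of 5 macrophage and Kupffer cell markers 1 was lower, with sums of 4316 to 6625 in DDC_only and 3582 to 4705 in PBS_only livers. These are called Kupffer cell markers below, although the list covers macrophages in general. Neutrophil sums were 275 to 337 in DDC_only and 163 to 274 in PBS_only livers, with Elane, Mpo and Retnlg undetected in both groups. In the same order, plasmacytoid dendritic cell sums were 1275 to 1362 and 706 to 1019, and cholangiocyte sums 136 to 190 and 73.1 to 132. T and NK cell sums were 312 to 447 and 469 to 692, and B cell sums 90.3 to 107 and 115 to 124. Of these genes, Cox6a2, Klk1 and Sox9 were undetected in PBS_only livers, Cd79a and Ms4a1 in DDC_only livers, and Krt19 and Nkg7 in both. Sums of the lists not given here overlapped. The part of these cell types in the members' changes was not tested.

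Other genes of the pathway are read against the 11.1% of all genes that were higher. Their lists were chosen with earlier results of these data known, so a larger share is a description and not independent support. Of 14 ligand, receptor and signalling genes, 4 rose (28.6%) and none fell, including Ifngr1, a chain of the interferon-gamma receptor, by 1.73 ± 0.24 (SE, adjusted p = 3.618e-06). Ifnlr1, the specific chain of the type III receptor, was undetected in PBS_only livers and at least 2.51-fold higher in DDC_only livers (adjusted p = 3.951e-06). Of 22 further interferon-stimulated genes, 3 rose (13.6%, near the share of all genes) and none fell, led by Cmpk2, the neighbour of Rsad2, by 2.28 ± 0.49 (SE, adjusted p = 0.0009516). Of 15 interferon-gamma-inducible genes of antigen processing and chemokines, the chemokine Cxcl10 rose by 3.78 ± 0.55 (SE, adjusted p = 5.774e-06), and the peptide transporter Tap1 and the immunoproteasome subunit Psmb9 fell. Of 10 nucleic acid sensing genes, the kinase Ikbke and the receptor Tlr7 rose and the adaptor Ticam1 fell.

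Non-tumoral AKT-CAT tissue was then set against PBS_only livers. Of the members, 4 were higher and 1 was lower, against 7.39% of all genes higher and 7.66% lower. Oasl2 was 6.89, 7.07 and 7.51 in non-tumoral AKT-CAT tissue and 5.66, 5.69 and 5.36 in PBS_only livers, a rise of 1.59 ± 0.36 (SE, adjusted p = 0.004153) without overlap. Ddx58 rose by 1.09 ± 0.26 (SE, adjusted p = 0.006355) and Eif2ak2 by 0.97 ± 0.21 (SE, adjusted p = 0.002188), each without overlap. Ifi47, an immunity-related GTPase, rose by 0.88 and Iigp1 fell by 0.92, both with overlapping arrays. Oasl1 and Ifit2, which were high in DDC_only livers, averaged 5.47 and 6.01 in non-tumoral AKT-CAT tissue and 5.42 and 6.02 in PBS_only livers.

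None of the 5 members kept its call under every alternative. With slide as a block 0 of the 36 were called, and within a fit of these groups alone 1 was. Median scaling gave 0 higher and 4 lower, and without non-tumoral AKT-CAT replicate 2 there were 3. Neutrophil markers were higher in 2 of 5, with sums of 634 to 2657 in non-tumoral AKT-CAT tissue and 163 to 274 in PBS_only livers. Their part was not tested. Socs3, a feedback inhibitor of cytokine receptors, rose by 2.25 ± 0.58 (SE, adjusted p = 0.008848) among 3 of 14 ligand, receptor and signalling genes that rose.

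Tumours were compared with non-tumoral tissue of AKT-CAT livers under each treatment. Without treatment, 2 of the 36 members were higher in tumours and 3 were lower, against 5.93% of all genes higher and 5.27% lower. The share of members that was higher was near that of all genes, and the share that was lower rests on 3 calls. Ifit2 was 8.85, 8.44, 9.38 and 9.11 in AKT-CAT tumours and 5.75, 5.59 and 6.69 in non-tumoral AKT-CAT tissue. Every tumour lay above every non-tumoral sample, a rise of 2.93 ± 0.49 (SE, adjusted p = 0.0001098). Usp18 rose by 1.08 ± 0.32 (SE, adjusted p = 0.02286), with 8.98 to 9.54 in the 4 tumours and 8.23, 7.73 and 8.52 in non-tumoral tissue. The dynamin-like GTPase gene Mx2 fell by 1.05 (adjusted p = 0.03112), Irf8 by 0.86 (adjusted p = 0.03907) and Irf9 by 0.58 (adjusted p = 0.03058).

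Ifit2 kept its call under every alternative, and the other calls were lost in a model with slide as a block. The slide that held both groups had 1 tumour and 3 non-tumoral samples. The change of 3.10 for Ifit2 in that model thus rests on 1 tumour. All 5 members kept their direction within this slide, which is the same comparison and not a separate check. Median scaling gave 5 higher and 0 lower members. Counts without 1 sample moved to 3 without tumour replicate 2, 2 without tumour replicate 3, 1 without non-tumoral replicate 1 and 2 without non-tumoral replicate 2. Of 5 Kupffer cell markers 1 was lower, with sums of 1882 to 4067 in tumours and 4131 to 8291 in non-tumoral tissue, and of 5 neutrophil markers 2 were lower, with sums of 151 to 861 and 634 to 2657. Their part was not tested.

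With DDC, 1 of the 36 members was higher in AKT-CAT tumours than in non-tumoral AKT-CAT tissue and 2 were lower. Among all genes, 2.48% were higher and 3.29% lower. The share of members that was higher was near that of all genes, and the share that was lower rests on 2 calls. Ddx58 was 6.81, 7.11, 7.05 and 6.72 in tumours and 6.34, 5.82 and 5.87 in non-tumoral tissue, a rise of 0.91 ± 0.25 (SE, adjusted p = 0.0268). Gbp7 was 5.42, 6.04, 5.44 and 6.44 in tumours and 6.92, 6.83 and 7.80 in non-tumoral tissue, a change of −1.35 ± 0.35 (SE, adjusted p = 0.02121). Neither pair of groups overlapped. Oas2, an oligoadenylate synthetase, was undetected in these tumours and at least 1.42-fold lower (adjusted p = 0.04547). Ifit2 was high on both sides, averaging 8.48 in tumours and 8.30 in non-tumoral tissue.

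No call was kept under every alternative: with slide as a block 0 members were called, although all 3 kept their direction within the shared slide. There were 0 calls without tumour replicate 1 or non-tumoral replicate 3, and 1 without tumour replicate 2 or 3 or non-tumoral replicate 2. Of the 5 Kupffer cell markers 4 were lower in tumours, with sums of 331 to 1140 in tumours and 2029 to 3653 in non-tumoral tissue, and Marco was undetected in the tumours. Of 5 endothelial markers 2 were lower, with sums of 402 to 1605 and 2083 to 5775. Their part was not tested.

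With CCl4, 7 members were higher in AKT-CAT tumours than in non-tumoral AKT-CAT tissue and 1 was lower, against 7.84% of all genes higher and 7.4% lower. The members' median change was 0.28, and that of all genes −0.02. Ifit2 was 9.30, 8.32, 9.89 and 8.47 in tumours and 5.83, 5.21, 4.95 and 6.67 in non-tumoral tissue, a rise of 3.33 ± 0.46 (SE, adjusted p = 3.582e-06). Ifit3, a partner of Ifit1 and Ifit2, was 8.98, 8.60, 8.77 and 8.70 in tumours and 7.53, 7.74, 7.36 and 7.45 in non-tumoral tissue, a rise of 1.24 ± 0.29 (SE, adjusted p = 0.003213). Oasl1 rose by 1.63 ± 0.46 (SE, adjusted p = 0.01311). In all of these the tumours lay above every non-tumoral sample.

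Of the 4 nucleic acid sensors, Dhx58 and Ddx58 passed as higher, and Zbp1 (change −0.38) and Ifih1, detected on 1 of the 8 arrays, did not pass. Dhx58 (LGP2), which modulates RIG-I and MDA5, was 7.82, 7.94, 7.32 and 7.42 in tumours and 6.52, 6.38, 6.66 and 6.61 in non-tumoral tissue, a rise of 1.08 ± 0.25 (SE, adjusted p = 0.002754) without overlap. Ddx58 rose by 0.89 ± 0.23 (SE, adjusted p = 0.006698), with 1 non-tumoral sample in the range of the tumours. Parp14, an ADP-ribosyltransferase, rose by 0.85 ± 0.18 (SE, adjusted p = 0.001039), and Ifi47 by 0.85 ± 0.24 (SE, adjusted p = 0.01425). Mx2 again moved the other way, with 5.64, 5.94, 6.08 and 5.62 in tumours and 6.77, 7.22, 7.15 and 7.21 in non-tumoral tissue, a change of −1.27 ± 0.30 (SE, adjusted p = 0.003185).

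Ifit2, Ifit3, Dhx58 and Parp14 passed under every alternative, and Mx2 was lost under median scaling, which gave 11 higher and 0 lower. All 5 Kupffer cell markers were lower in these tumours, with sums of 612 to 2226 in tumours and 2167 to 5651 in non-tumoral tissue. Of 5 neutrophil markers 4 were lower, with sums of 932 to 8744 and 4340 to 34161. Their part was not tested. Of the 15 antigen processing and chemokine genes, 5 rose and none fell, led by Cxcl9, a chemokine that draws T cells, by 2.59 ± 0.56 (SE, adjusted p = 0.00149) and by the MHC class II chaperone Cd74, by 1.84 ± 0.35 (SE, adjusted p = 0.0003657). Over 6 T and NK cell markers the sums were 404 to 729 in tumours and 408 to 1620 in non-tumoral tissue.

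Whether the tumour effect differed between treatments was tested directly. The effect under CCl4 exceeded that under DDC for 2 members and fell short for none, against 2.37% and 0.957% of all genes. They were Ifit2, by 3.16 ± 0.67 (SE, adjusted p = 0.004714), and Ifit3, by 1.60 ± 0.43 (SE, adjusted p = 0.0342). Ifit2 passed under every alternative, whereas Ifit3 was lost with slide as a block, with probes averaged and without the detection filter. One member was called without any of replicates 1, 2 and 4 of the AKT-CAT tumours with DDC, replicates 2 and 3 of the non-tumoral tissue with DDC, replicates 1 and 4 of the tumours with CCl4, or replicate 4 of the non-tumoral tissue with CCl4. Against the tumour effect without treatment, limma called 0 members, with 4 at an unadjusted p under 0.05 and 0.0557% and 0.0836% of all genes called higher and lower. Parp14 had the lowest p of those 4, with a difference of 0.99 ± 0.26 (SE, adjusted p = 0.1416).

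DDC was next followed inside AKT-CAT livers. In tumours, 1 member was higher with DDC than without and 4 were lower, against 7.4% of all genes higher and 5.86% lower. Oasl1 was 8.58, 8.04, 9.05 and 8.49 in AKT-CAT tumours with DDC and 6.82, 6.17, 8.19 and 6.54 in AKT-CAT tumours, a rise of 1.61 ± 0.46 (SE, adjusted p = 0.01902), with 1 untreated tumour in the range of the DDC group. Gbp3 was 5.96, 6.38, 6.49 and 6.25 in tumours with DDC and 7.64, 7.17, 7.53 and 7.71 in those without, a change of −1.24 ± 0.39 (SE, adjusted p = 0.03255) without overlap. Gbp7 fell by 0.97 (adjusted p = 0.04239), Ifi47 by 0.96 (adjusted p = 0.008835) and Ifit3 by 0.94 (adjusted p = 0.02996).

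With slide as a block 0 members were called, although all 5 kept their direction within the slide that held both groups, where Oasl1 differed by 1.71. Median scaling gave 5 higher and 0 lower. Counts moved to 1 without replicate 1 or 3 of the tumours with DDC, 3 without their replicate 4, 3 without replicate 1 or 4 of the untreated tumours, and 2 without their replicate 2. Of the 5 Kupffer cell markers 3 were lower, with sums of 331 to 1140 in tumours with DDC and 1882 to 4067 in those without, and their part was not tested. Tap2, a peptide transporter subunit, fell by 1.41 (adjusted p = 0.001556) and the proteasome activator Psme1 rose by 0.79 ± 0.16 (SE, adjusted p = 0.001038).

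In non-tumoral AKT-CAT tissue, 3 of the 36 members were higher with DDC than without and 3 were lower. Among all genes, 10.3% were higher and 7.78% lower, so neither share of the members stood clearly above that of all genes. Oasl1 was 8.90, 8.14 and 7.68 with DDC and 5.02, 5.22 and 6.16 without, a rise of 2.77 ± 0.53 (SE, adjusted p = 0.00033). Ifit2 was 9.29, 7.50 and 8.11 with DDC and 5.75, 5.59 and 6.69 without, a rise of 2.29 ± 0.53 (SE, adjusted p = 0.002451). Usp18 was 10.30, 10.15 and 10.07 with DDC and 8.23, 7.73 and 8.52 without, a rise of 2.01 ± 0.34 (SE, adjusted p = 6.044e-05). All 3 were also among the members that rose with DDC in livers with no named oncogene, and in all 3 the groups were apart. A second Usp18 probe differed by −0.13 ± 0.36 (SE, adjusted p = 0.8585) in the same samples.

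The members that fell were Gbp3, Irf9 and Oas1g. Gbp3 was 6.99, 6.58 and 7.19 with DDC and 9.05, 8.57 and 8.42 without, a change of −1.76 ± 0.45 (SE, adjusted p = 0.006356). Irf9, the DNA-binding partner of STAT2, was 7.65, 7.63 and 7.88 with DDC and 9.25, 8.62 and 8.61 without, a change of −1.10 ± 0.19 (SE, adjusted p = 8.737e-05). Oas1g fell by 0.99 (adjusted p = 0.02482). No slide held both groups, and with slide as a block 0 members were called: Oasl1 then differed by 2.25 ± 0.94 (SE, adjusted p = 0.2667) and Ifit2 by 2.51 ± 0.93 (SE, adjusted p = 0.185). Median scaling gave 10 higher and 0 lower. Of 5 neutrophil markers 3 were lower, with sums of 138 to 222 with DDC and 634 to 2657 without, and their part was not tested.

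In AKT-NRAS tumours, no member was higher with DDC and 5 were lower, against 0.511% of all genes higher and 1.43% lower (limma; 0 members were higher at an unadjusted p under 0.05 too). The changes were below 0 for 34 of the 36 members, with a median of −0.59, and the median of all genes was 0.01. Gbp2 was 6.70, 6.83, 6.62 and 6.65 in AKT-NRAS tumours with DDC and 8.37, 7.92, 9.01 and 9.62 in those without, a change of −2.03 ± 0.44 (SE, adjusted p = 0.01049). Gbp3 changed by −1.58 ± 0.39 (SE, adjusted p = 0.0276), with 6.10, 5.79, 6.35 and 6.22 with DDC and 7.38, 7.07, 7.80 and 8.51 without. Both guanylate-binding protein genes were lower in every tumour with DDC.

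Outside the GTPases, Oasl2 was 7.04, 6.31, 6.02 and 6.22 in AKT-NRAS tumours with DDC and 7.67, 7.19, 7.82 and 7.59 in those without, a change of −1.17 ± 0.32 (SE, adjusted p = 0.04356). Ifit3 changed by −1.16 ± 0.29 (SE, adjusted p = 0.03015) and Irf9 by −0.83 ± 0.17 (SE, adjusted p = 0.005085). None of the 3 overlapped. Rsad2, at 6.03, 6.47, 6.43 and 6.15 with DDC and 7.85, 8.30, 8.12 and 8.92 without, did not pass (change −2.03 ± 0.67, SE, adjusted p = 0.1185), although its groups were apart.

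Median scaling called 15 members lower and a fit of these groups alone called 8, whereas averaging the probes of a gene called 2. Counts moved to 2 without AKT-NRAS replicate 3, 1 without AKT-NRAS replicate 4, 3 without replicate 1 and 2 without replicate 2 or 3 of the tumours with DDC. Among the interferon-gamma-inducible genes 2 of 15 fell and none rose: Cxcl9 changed by −3.52 (adjusted p = 0.000328) and Cd74 by −1.93 (adjusted p = 0.001839). Of the 22 further interferon-stimulated genes 3 fell and none rose, led by Ifi27l2a with a change of −2.56 (adjusted p = 0.0003338). Of the Kupffer cell markers 1 of 5 was lower, with sums of 581 to 910 with DDC and 781 to 2893 without, and of the stellate and fibroblast genes 2 of 6, with sums of 3874 to 5446 and 6765 to 10702. Their part was not tested.

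**Figure D5:**
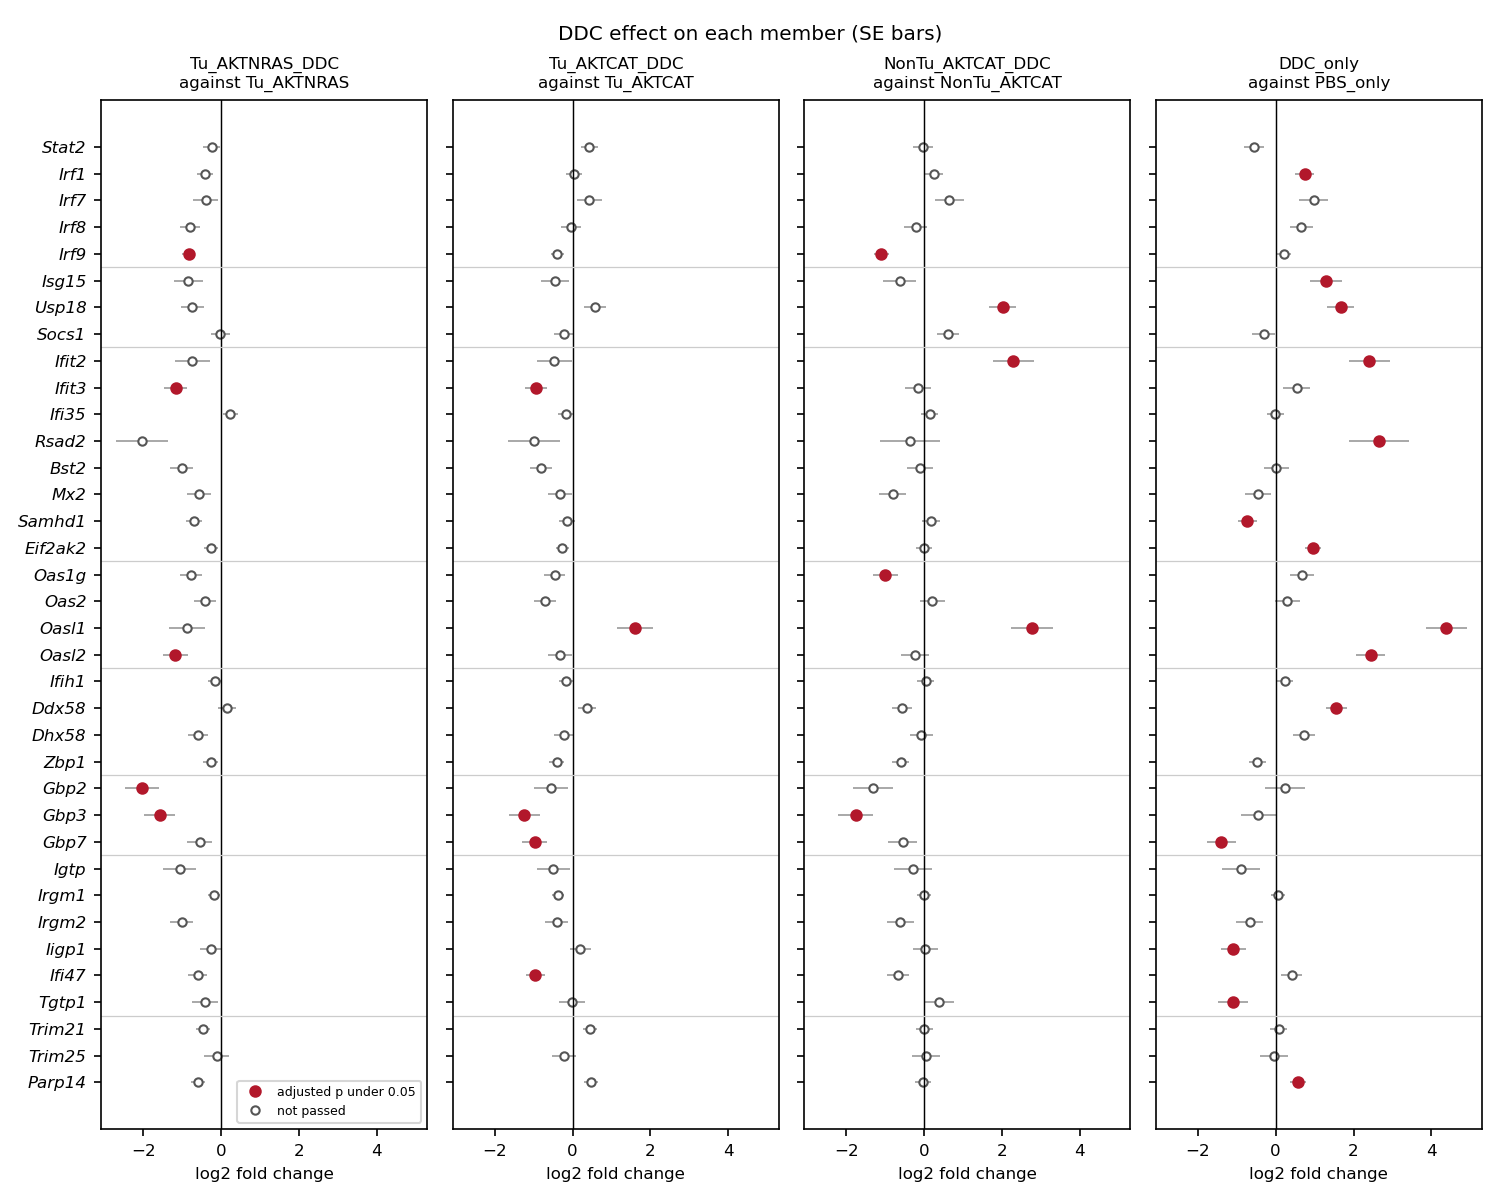
Log2 fold change with DDC (x axis, SE bars) of each member by role (y axis) in AKT-NRAS tumours, AKT-CAT tumours, non-tumoral AKT-CAT tissue and livers with no named oncogene. Filled points passed the test: Oasl1 passed as higher in the last 3 settings, and in AKT-NRAS tumours 34 of 36 points lie below 0.

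The difference between the DDC effects in AKT-NRAS and AKT-CAT tumours was tested for all genes. It was below 0 for 2 members and above 0 for none among those called, against 1.74% and 1.69% of all genes. Oasl1 differed by −2.48 ± 0.65 (SE, adjusted p = 0.02992) and Parp14 by −1.07 ± 0.25 (SE, adjusted p = 0.01586). The corresponding differences of Gbp3, Gbp7 and Ifit3, which were lower with DDC in tumours of 1 or both kinds, did not pass. Neither Oasl1 nor Parp14 kept its call in the model with a slide term, and median scaling called 14 members, all below 0. The count was 1 without replicate 1 or 3 of the AKT-CAT tumours with DDC, replicate 2 or 4 of the AKT-CAT tumours, replicate 3 or 4 of the AKT-NRAS tumours, or replicate 1 or 3 of the AKT-NRAS tumours with DDC, and 4 without AKT-NRAS replicate 2.

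CCl4 was followed in the same 2 tissues. In AKT-CAT tumours no member was higher with CCl4 than without and 1 was lower, against 5.11% of all genes higher and 3.18% lower (limma; 2 were higher at an unadjusted p under 0.05). That member was Oas1g, undetected in tumours with CCl4 and at least 1.62-fold lower (adjusted p = 0.02644). The call was lost without the background model and in a fit of these groups alone, and median scaling called 3. The count was 0 without untreated replicate 1 or CCl4 replicate 1 or 3, and 2 without untreated replicate 3. The CCl4 and the untreated groups lay on different slides, so treatment and slide cannot be told apart.

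In non-tumoral AKT-CAT tissue no member was higher with CCl4 and 7 were lower, against 10.7% of all genes higher and 8.21% lower (limma; 1 was higher at an unadjusted p under 0.05). Gbp3 was 7.13, 7.45, 5.88 and 7.45 with CCl4 and 9.05, 8.57 and 8.42 without, a change of −1.70 ± 0.42 (SE, adjusted p = 0.004761). Ifit3 was 7.53, 7.74, 7.36 and 7.45 with CCl4 and 8.53, 9.24 and 8.90 without, a change of −1.37 ± 0.32 (SE, adjusted p = 0.002446). Isg15 was 7.59, 8.44, 7.69 and 7.63 with CCl4 and 8.65, 9.46 and 8.92 without, a change of −1.17 ± 0.39 (SE, adjusted p = 0.03368). In each of these the groups were apart.

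Oas1g, Dhx58, Parp14 and Irf9 changed by −1.08, −1.02, −0.79 and −0.51 (adjusted p = 0.008736, 0.007308, 0.003841 and 0.04235). Under median scaling 0 members were called, and slide and treatment cannot be told apart here either. Of 5 neutrophil markers 4 were higher, with sums of 4340 to 34161 with CCl4 and 634 to 2657 without, and 1 of 6 T and NK cell markers was lower, with sums of 408 to 1620 and 644 to 916. Their part was not tested. Cxcl9 fell by 2.54 (adjusted p = 0.003452), and Jak1, a kinase of interferon receptors, rose by 1.65 ± 0.32 (SE, adjusted p = 0.0004937).

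The oncogene pair was compared in untreated tumours. Of the members, 2 were higher in AKT-NRAS than in AKT-CAT tumours and 10 were lower, against 20.6% of all genes higher and 16.9% lower. Irf8 was 6.94, 7.40, 7.29 and 8.21 in AKT-NRAS tumours and 6.53, 5.72, 5.90 and 5.85 in AKT-CAT tumours, a rise of 1.46 ± 0.26 (SE, adjusted p = 3.746e-05). Ifi35 was 6.72, 7.04, 7.04 and 7.02 in AKT-NRAS tumours and 8.25, 8.42, 8.52 and 8.64 in AKT-CAT tumours, a change of −1.50 ± 0.19 (SE, adjusted p = 2.101e-07). Both pairs of groups were apart, and both calls were kept under every alternative.

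The sensors Dhx58, Zbp1, which binds Z-form nucleic acids, and Ddx58 were lower in AKT-NRAS tumours, by −1.26 ± 0.25, −0.70 ± 0.19 and −0.63 ± 0.23 (SE, adjusted p = 0.0001813, 0.004095 and 0.03017). Ifit3 was 7.66, 7.69, 8.13 and 8.77 in AKT-NRAS tumours and 9.27, 9.22, 9.71 and 9.06 in AKT-CAT tumours, a change of −1.25 ± 0.29 (SE, adjusted p = 0.001049). Igtp, Mx2 and Irf7 changed by −1.10, −0.90 and −0.81 (adjusted p = 0.03958, 0.01785 and 0.04841), the last 2 with overlap. The Fc receptor gene Trim21 was 0.55 higher (adjusted p = 0.02232), with overlap. The other 2 that were lower, named after their values were seen, were Parp14 and Eif2ak2, with changes of −0.52 and −0.46.

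These counts changed with the scaling: median scaling gave 9 higher and 1 lower, under which Zbp1 turned to 0.01 (adjusted p = 0.963) and the median of all genes was 0.42. Driver and slide cannot be told apart. The count was 6 without AKT-CAT tumour replicate 1. Of 5 Kupffer cell markers 1 was higher and 2 were lower, with sums of 781 to 2893 in AKT-NRAS and 1882 to 4067 in AKT-CAT tumours, 4 of 6 stellate and fibroblast genes were higher, with sums of 6765 to 10702 and 4882 to 6822, and their part was not tested. Of the 14 ligand, receptor and signalling genes 6 rose and 2 fell, led by Jak1 with 1.82 ± 0.30 (SE, adjusted p = 1.457e-05) and the shared receptor chain Il10rb with 1.52 ± 0.23 (SE, adjusted p = 4.342e-06), while the transcription factor Irf3 fell by 0.84 (adjusted p = 0.0002265).

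Against PBS_only livers, 7 members were higher in AKT-NRAS tumours and 12 were lower, against 26.2% of all genes higher and 23.8% lower. Ifit2 was 8.17, 7.46, 7.99 and 8.59 in AKT-NRAS tumours and 5.62, 6.38 and 6.06 in PBS_only livers, a rise of 2.03 ± 0.49 (SE, adjusted p = 0.0009434). Oasl2 was 7.67, 7.19, 7.82 and 7.59 in AKT-NRAS tumours and 5.66, 5.69 and 5.36 in PBS_only livers, a rise of 2.0 ± 0.34 (SE, adjusted p = 1.217e-05). Irf8, Ifi47, Usp18, Eif2ak2 and Irgm1 rose by 1.14, 0.99, 0.88, 0.82 and 0.58.

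Among the members that fell was Gbp7. It was 5.71, 6.24, 6.30 and 6.53 in AKT-NRAS tumours and 8.52, 8.06 and 9.22 in PBS_only livers, a change of −2.41 ± 0.35 (SE, adjusted p = 9.415e-07). Igtp was 8.93, 8.63, 9.44 and 10.13 in AKT-NRAS tumours and 11.28, 10.43 and 12.44 in PBS_only livers, a change of −2.10 ± 0.45 (SE, adjusted p = 0.0002731). Irgm2 changed by −1.43 ± 0.32 (SE, adjusted p = 0.000395) and Mx2 by −1.62 ± 0.32 (SE, adjusted p = 9.921e-05). In all 4 the groups were apart, and each passed under every alternative. Ifi35, Gbp3, Zbp1 and Samhd1 changed by −1.34, −1.28, −1.09 and −1.06. The other 4 that fell, named after their values were seen, were Iigp1, Irf7, Stat2 and Parp14, with changes of −0.84, −0.84, −0.80 and −0.62.

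Under median scaling 16 members were higher and 4 lower, and driver and slide cannot be told apart. Of 5 Kupffer cell markers 4 were lower and 1 was higher, with sums of 781 to 2893 in AKT-NRAS tumours and 3582 to 4705 in PBS_only livers, and 3 of 5 endothelial markers were lower, with sums of 587 to 4642 and 6721 to 7555. Plasmacytoid dendritic cell sums were higher in the tumours, with 1974 to 2410 and 706 to 1019. Of the 5 genes summed, Cox6a2 and Klk1 were undetected in PBS_only livers and Pacsin1 in the tumours. Neutrophil sums (989 to 2023 and 163 to 274) and cholangiocyte sums (530 to 707 and 73.1 to 132) were also higher in the tumours. The neutrophil genes Elane, Mpo and Retnlg and the cholangiocyte genes Krt19 and Sox9 were undetected in PBS_only livers. Mpo was undetected in the tumours as well. Stellate and fibroblast sums were 6765 to 10702 and 5859 to 6565, while T and NK cell sums overlapped, with 395 to 595 and 469 to 692. Their part in the members' changes was not tested. Of the pathway genes, Il10rb rose by 2.60 ± 0.25 (SE, adjusted p = 4.151e-10) and Ifnlr1 was at least 4.11-fold higher (adjusted p = 4.084e-10). Of the 15 interferon-gamma-inducible genes 1 rose and 6 fell, among them Tapbp by 1.29 (adjusted p = 0.006854) and Tap1 by 1.27 (adjusted p = 0.0007773), both of which serve the loading of MHC class I.

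Several members could not be followed, or rested on 1 of several probes. Gbp6 and Ifi44 had no probe, and Gbp4, Ifit1, Mx1, Oas1a, Oas3, Sp100 and Xaf1 had none detected on at least 3 arrays, so these 9 genes have no result. Of 62 pairs of a call and another kept probe of the same gene, 56 had the same direction and 28 also passed. The exceptions were a dim second probe of Oasl2 in 4 comparisons, 1 probe of Usp18 for DDC in non-tumoral AKT-CAT tissue and 1 probe of Irgm1 in AKT-NRAS tumours against PBS_only livers. The second Oasl2 probe passed in the opposite direction in 2 of the 4, with −0.70 ± 0.20 (SE, adjusted p = 0.01807) in non-tumoral AKT-CAT tissue and −0.89 ± 0.19 (SE, adjusted p = 0.000183) in AKT-NRAS tumours, each against PBS_only livers, so the rise of Oasl2 there rests on 1 probe. The members are related by descent in several families (Oas, Ifit, Gbp, Irg), and cross-hybridization between close paralogues was not tested.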

How the data were processed

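Total RNA of 36 mouse liver samples was labelled with biotin and hybridized to Illumina bead arrays. The deposited table gave each probe's intensity without normalization and a detection p-value, and the authors used GenomeStudio, per the submitters' processing notes, with the version not given in the sources used here. Background subtraction had left 24.8% to 30.2% of intensities below 0. Detection p-value columns are headed by slide position and not by sample, and were tied to samples by rank order, with 0 steps out of order for the column used and at least 7712 for any other. A deposited table of the authors' processed values, also intensity, served as an alternative.

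The intensities were background-corrected and quantile-normalized with neqc (limma 3.58.1, R 4.3.3, offset 16). Probes with detection p under 0.05 on at least 3 of 36 arrays were kept, the brightest per gene, which left 10765 genes. One model of 10 groups gave 12 pairs and 3 differences of effects, with Benjamini-Hochberg adjustment over all genes and calls at adjusted p under 0.05. The number of arrays limits precision. The code was tested on simulated data. Samples were not paired by replicate number: same-numbered arrays correlated between −0.29 and 0.35, and in 0 of 12 comparisons did every pair exceed 0.1. With 3 or 4 arrays per group, this cannot exclude that tumour and non-tumoral samples came from the same livers. Alternatives changed the scaling, background model, filter, probe choice, groups fitted, slide or replicate block, or left out 1 array. A random slide block was added after seeing the data.

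The members and the lists of other genes were chosen with earlier results of these data known. Named members are up to 8 calls per direction by size of change, and up to 3 genes per direction of each other list. The lists held ligands, receptors and signalling, nucleic acid sensing, further interferon-stimulated genes, interferon-gamma-inducible genes, and markers of cell types. Those cell types were hepatocytes, macrophages with Kupffer cells, dendritic cells, T and NK cells, B cells, neutrophils, endothelium, cholangiocytes and stellate cells. Motifs were searched in RefSeq promoters.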

Additional observations from a re-analysis of the deposited data

Results flagged for a closer look

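Among 84 sets of 4 arrays (14 members in 6 groups), 4 had an array far from the others by Dixon's criterion, and chance gives about 1 in 20. Igtp was 12.28 in AKT-CAT tumour with CCl4 replicate 3, against 10.01 to 10.20 in the other replicates. The same array was also the highest of its group for Gbp2 (10.50), Gbp3 (8.97) and Irgm2 (11.17), all genes that interferon-gamma induces. Igtp was 8.74 in AKT-NRAS tumour with DDC replicate 4, against 7.99 to 8.11. Mx2 was 6.77 in non-tumoral AKT-CAT tissue with CCl4 replicate 1, against 7.15 to 7.22. Dhx58 was 6.35 in AKT-NRAS tumour replicate 1, against 6.79 to 6.84.

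For 4 members an effect differed between settings by a test of the difference itself (limma, adjusted over all genes). The tumour effect under CCl4 exceeded that under DDC by 3.16 for Ifit2 (adjusted p = 0.004714) and by 1.60 for Ifit3 (adjusted p = 0.0342). The DDC effect in AKT-NRAS tumours minus that in AKT-CAT tumours was −2.48 for Oasl1 (adjusted p = 0.02992) and −1.07 for Parp14 (adjusted p = 0.01586).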

How the results depend on the processing

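Of 86 results for named members, 23 kept direction and call under every alternative run. Over 1383 alternatives 1108 kept both, 274 lost the call, and 1 reversed: Zbp1 in AKT-NRAS against AKT-CAT tumours under median scaling (0.0131). Numbers of called members that moved by over 1.5 times were as follows. Median scaling gave 10 for DDC in non-tumoral tissue, 3 and 0 for CCl4 in tumours and in non-tumoral tissue, 15 for DDC in AKT-NRAS tumours, and 14 for the difference of DDC effects. Without a background model, CCl4 in tumours gave 0. Without the detection filter, DDC in AKT-CAT tumours gave 3 and both differences of effects gave 1. Averaging probes gave 2 for DDC in AKT-NRAS tumours and 1 for both differences. Fitting only the groups compared gave 9 for DDC_only against PBS_only, 1 for non-tumoral AKT-CAT tissue against PBS_only, 2 for untreated tumours against non-tumoral tissue, 0 for CCl4 in tumours and 8 for DDC in AKT-NRAS tumours. With slide as a block the count was 0 for non-tumoral AKT-CAT tissue against PBS_only, 1 for untreated tumours against non-tumoral tissue, and 0 for tumours against non-tumoral tissue with DDC, for DDC in AKT-CAT tumours and for DDC in non-tumoral tissue. It was 1 for the CCl4 and DDC tumour effects and 0 for the difference of DDC effects. The cause of these changes was not tested.

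Leaving out 1 array gave 8 to 14 calls for DDC_only, 3 to 5 for non-tumoral AKT-CAT tissue and 16 to 19 for AKT-NRAS tumours, each against PBS_only. Tumours against non-tumoral tissue gave 1 to 6 untreated, 0 to 3 with DDC and 7 to 9 with CCl4. DDC gave 1 to 6 in AKT-CAT tumours, 5 to 7 in non-tumoral tissue and 1 to 7 in AKT-NRAS tumours, and CCl4 gave 0 to 2 in tumours and 5 to 9 in non-tumoral tissue. AKT-NRAS against AKT-CAT tumours gave 6 to 10, and the differences of effects gave 0 to 0, 1 to 2 and 1 to 4. With the replicate number as a block, 84 of the 86 named calls were kept, DDC_only against PBS_only had 14 calls, and no count moved by over 1.5 times. The random slide block changed none of the 86. Its estimated correlation within slides was −0.0098, so that fit was nearly the main fit and is no check on slide. With slide as a fixed block, 26 of the 53 named calls that could be estimated were lost. With 3 or 4 arrays per group, small changes and probes near background could not be resolved.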
